A study of Mus musculus with 8 samples.

Results

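The DNA replication machinery is described here through 46 genes, chosen by symbol from a textbook list of origin licensing factors, helicase activators, polymerases with the enzymes of Okazaki fragment maturation, the sliding clamp with its loader and the single-strand binding protein, and enzymes of deoxynucleotide supply. Each of the 46 symbols was found once among the 26263 genes counted, and 46 of 46 passed the low-count filter that left 16399 genes for testing. Poly(A) RNA was sequenced from male hybrid mouse embryonic stem cells (ESCs) and from neural precursor cells (NPCs) obtained from them after 12 days of *in vitro* corticogenesis, in which the culture is directed towards cortical progenitors. In B/J (genotype C57BL/6 x JF1, line BJE2) and J/B (genotype JF1 x C57BL/6, line JBE6) the parents were exchanged, and each cross was a single line, so that cross and line cannot be told apart. ESCs of both crosses were kept with LIF, BMP4 and a GSK3-β inhibitor, and corticogenesis was run on Matrigel with dorsomorphin homolog 1. The labels name no further allele or agent for any group. There were 4 groups of 2 libraries (ESC B/J, ESC J/B, NPC B/J, NPC J/B). The sources do not say whether the replicates came from separate cultures, so p-values measure the spread between these libraries, which may be technical. Either of 2 library kits (Illumina TruSeq Stranded mRNA or NEBNext Ultra II) and either of 2 sequencers were used, and the sources used here do not give which library had which.

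Eukaryotic replication origins are licensed before S phase, when the origin recognition complex (ORC), Cdc6 and Cdt1 load the Mcm2 to Mcm7 helicase onto DNA. Kinases, Cdc45 and the GINS complex then turn the loaded helicase on, after which polymerases copy both strands with the help of the PCNA clamp. Many of these genes are known targets of E2F transcription factors, which pocket proteins of the retinoblastoma family hold in check, and mouse ESCs are known for a short cycle with a large share of cells in S phase. In bulk RNA, fewer cells that replicate and less RNA per cell cannot be told apart.

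The sequence around the start sites of the members is shown first. Promoter windows from RefSeq reaching from 250 bases before to 50 bases after the start were taken from a table built on GRCm38.p6 and were placed in GRCm39, the build of the counts, by exact match. Such a window was listed for 38 of the 46 members. The other 8 were *Gmnn*, *Mcm4*, *Gins1*, *Gins2*, *Gins4*, *Prim2*, *Pole* and *Rfc2*. The windows were searched on both strands for the E2F words TTTCCCGC, TTTCGCGC, TTTGCCGC and TTTGGCGC, which may overlap each other. Of the 38 members, 14 (36.8%) held at least 1 E2F word, against 2.60% of all 27025 genes with a window. The word CCAAT, bound by NF-Y, lay in 23 of the 38 members (60.5%) and in 41.1% of all genes. All genes here means every gene with a window, expressed or not, and the windows were not matched for base composition. The shares were not compared by a test. The 9 members with an E2F word before the start were *Orc1*, *Orc3*, *Cdc6*, *Mcm5*, *Mcm6*, *Mcm7*, *Gins3*, *Pola1* and *Rfc3*. The other 5, with words only after it, were *Cdt1*, *Mcm3*, *Pold1*, *Pole2* and *Lig1*. A match of letters is a description of the window and not evidence of binding. Its relation to the change between the stages was not tested. The 9 members with a word before the start had log2 fold changes, NPCs against ESCs, of -3.04 (*Orc1*) to -0.28 (*Rfc3*). Members with a window but no word had -2.60 (*Rfc5*) to 0.16 (*Orc4*). The stretch around the word is printed 5′ to 3′ on the strand on which the word reads as above, with E2F words in capitals:
Orc1: aggagaaaactTTTCGCGCcactaaccgaa
Orc3: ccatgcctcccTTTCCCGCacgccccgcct
Cdc6: accccaggcgaTTTCCCGCtctccaccggc
Mcm5: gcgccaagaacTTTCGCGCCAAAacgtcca
Mcm6: tggcgtatgctTTTGGCGCGAAAagtgcgt
Mcm7: tggacaccctgTTTCCCGCggttcgaaatt
Gins3: ttcaaactcgcTTTCCCGCgccgcactcgc
Pola1: gcgggagtgcaTTTGGCGCcctgtgatgac
Rfc3: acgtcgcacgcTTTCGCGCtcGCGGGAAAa

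In GRCm39 these stretches of 30 bases lie at chr4:108436613-108436642 (minus strand) for *Orc1*, chr4:34614965-34614994 (minus strand) for *Orc3*, chr11:98798828-98798857 (minus strand) for *Cdc6*, chr8:75835973-75836002 (plus strand) for *Mcm5* and chr1:128287534-128287563 (minus strand) for *Mcm6*. The others lie at chr5:138170292-138170321 (plus strand) for *Mcm7*, chr8:96360135-96360164 (minus strand) for *Gins3*, chrX:92675881-92675910 (plus strand) for *Pola1* and chr5:151574665-151574694 (minus strand) for *Rfc3*. By GENCODE vM39 the stretches of *Mcm5*, *Mcm6* and *Pola1* lie outside the gene and hold no annotated exon. That of *Cdc6* lies inside the gene in an intron, those of *Orc1*, *Mcm7*, *Gins3* and *Rfc3* lie in annotated exons, and that of *Orc3* lies outside *Orc3* in an annotated exon. *Mcm5* and *Mcm6* share the run TTTCGCGCCAAA or its reverse complement, in which 2 words overlap on opposite strands.

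*Mcm5* and *Mcm2* had the 2 largest falls among the helicase subunits, and their upstream 250 bases are printed because the first holds E2F words and the second does not. Capitals mark E2F words and CCAAT words on either strand. The stretches lie at chr8:75835887-75836136 (plus strand) and chr6:88875763-88876012 (minus strand) and hold no annotated exon:
Mcm5: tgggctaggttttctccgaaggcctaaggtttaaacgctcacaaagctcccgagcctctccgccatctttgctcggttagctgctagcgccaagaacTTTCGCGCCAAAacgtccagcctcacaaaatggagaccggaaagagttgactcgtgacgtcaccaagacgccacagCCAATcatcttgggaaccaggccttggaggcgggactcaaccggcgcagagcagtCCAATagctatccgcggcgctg
Mcm2: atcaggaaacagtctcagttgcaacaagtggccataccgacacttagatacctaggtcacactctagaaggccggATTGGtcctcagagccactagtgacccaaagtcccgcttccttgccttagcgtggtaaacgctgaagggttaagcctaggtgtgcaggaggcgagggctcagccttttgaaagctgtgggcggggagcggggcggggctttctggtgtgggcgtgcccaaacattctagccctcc

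Between the stages, 42 of the 46 members fell from ESCs to NPCs and 0 rose (edgeR's quasi-likelihood test, adjusted p below 0.05), where 31.9% of all genes tested fell and 37.5% rose. At an unadjusted p below 0.05 there were 43, all lower, where 33.2% of all genes were lower at that level. DESeq2 and limma-voom called 43 and 42, again with 0 higher, where 5302 and 5239 of the 16399 genes tested were lower. The median log2 fold change of the 46 members was -1.59, beside 0.17 for all genes tested, and the members ranged from -3.04 for *Orc1* to 0.16 for *Orc4*. Not called were *Orc4*, *Cdc7*, *Rfc3* and *Rpa3*. In 43 of the 46 members every NPC library lay below every ESC library on TMM-normalised CPM (counts scaled to a common library size), as it did for 31.2% of all genes tested.

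How far the members fell depends on the scaling. The TMM factors of the ESC libraries were 0.820 to 0.885 and those of the NPC libraries 1.14 to 1.21, and without them the median change of all genes moved to 0.65. Scaled to library totals alone, 37 members were lower (20.9% of all genes tested) and 1 was higher (48.9%), with a median of -1.12 over the members, and every NPC library lay below every ESC library in 36 of 46 (20.5% of all genes). Scaled to the reference genes *Gapdh*, *Gusb* and *Tbp* (geometric mean), those of the study's RT-qPCR, 34 were lower (17.2% of all genes tested) and 1 was higher (51.6%), with a median of -0.98 beside 0.80 for all genes. The higher member was *Orc4* in both cases.

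**Figure D1:**
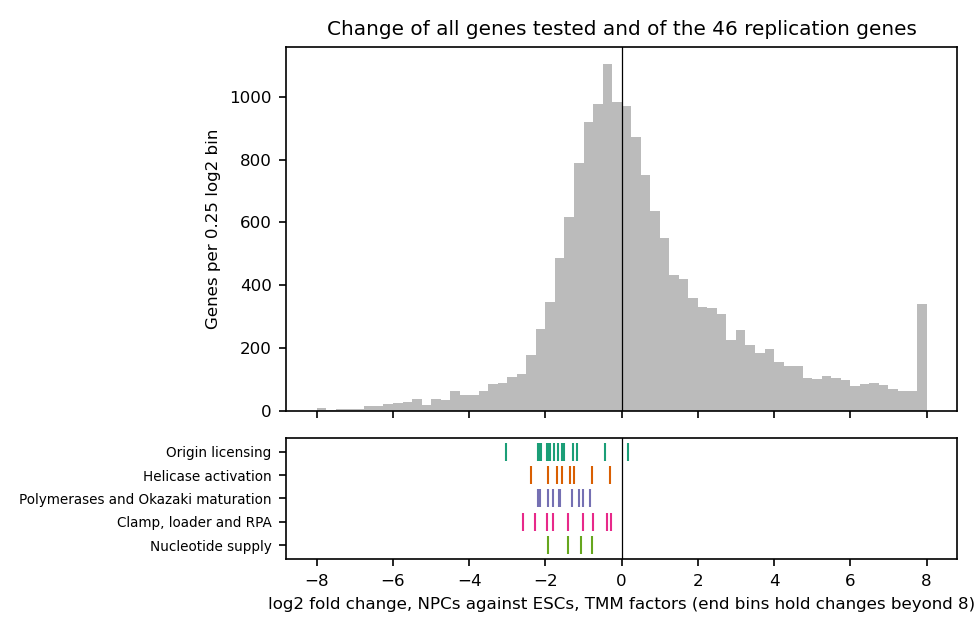
Histogram of log2 fold changes (x axis, NPCs against ESCs, TMM factors) of the 16399 genes tested (y axis, genes per bin), with a tick for each of the 46 members by role in the lower panel. The ticks lie between -3.04 and 0.16, while the genes as a whole spread to both sides of their median of 0.17.

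Summed over the 46 members and scaled to library totals, replication transcripts took 7683, 7445, 7562 and 6719 CPM in the ESC libraries, in the order B/J replicate 1, B/J replicate 2, J/B replicate 1 and J/B replicate 2 that is kept throughout. In the NPC libraries they took 2877, 2995, 4158 and 2680 CPM. The groups did not overlap, with 7352 ± 433 CPM in ESCs and 3178 ± 666 CPM in NPCs (SD, n = 4 libraries per stage), a ratio of 2.31.

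**Figure D2:**
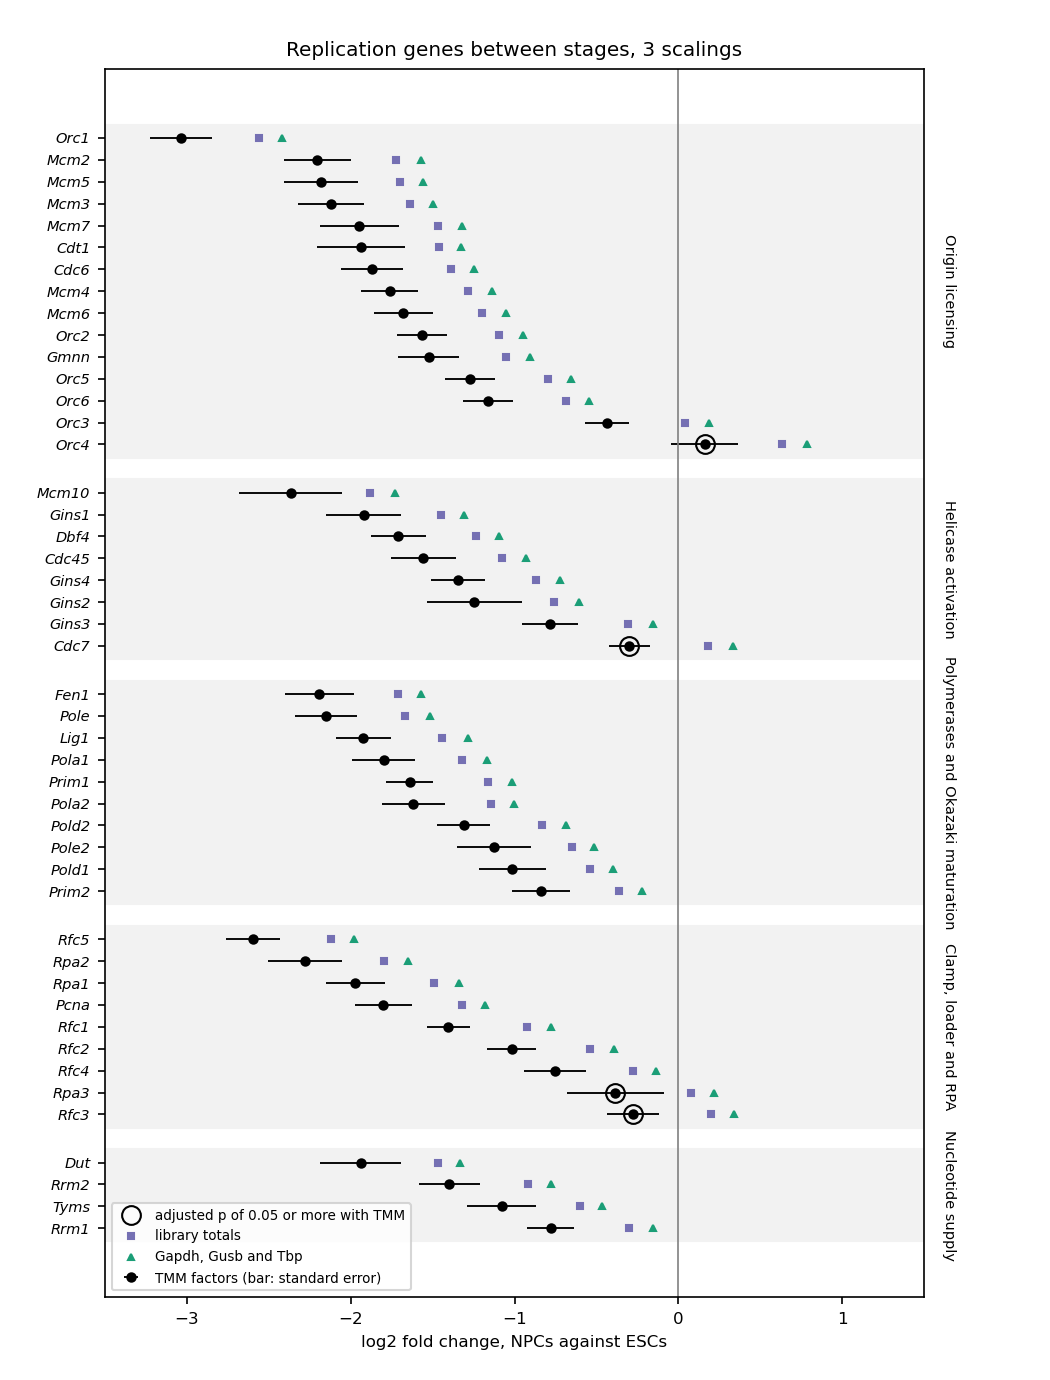
Log2 fold change of each of the 46 members (x axis, NPCs against ESCs) by role, with TMM factors (black, bar: standard error), library totals (squares) and scaling to *Gapdh*, *Gusb* and *Tbp* (triangles). Open rings mark the 4 members that missed the threshold with TMM factors, under which only *Orc4* lies right of 0, while *Orc3*, *Cdc7*, *Rfc3* and *Rpa3* also lie right of 0 under both other scalings.

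Origin licensing held 15 members, of which 14 fell and 1 did not pass, with a median log2 fold change of -1.76; of the called members only *Orc3* changed sign under library totals or reference-gene scaling. *Orc1* (chr4:108436540-108473245, plus strand), the ATPase subunit of ORC whose protein is known to be turned over with the cell cycle, had the largest fall of the 46. It was read at 129, 131, 113 and 117 normalised CPM in ESCs and at 15.7, 15.2, 17.97 and 10.6 in NPCs. The lowest ESC library was thus far above the highest NPC library, and the log2 fold change was -3.04 (SE 0.19, adjusted p = 1.87e-05).

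Changes were smaller for the other ORC subunits. *Orc2*, *Orc5* and *Orc6* had log2 fold changes of -1.57, -1.27 and -1.16. *Orc3* was read at 53.4, 57.4, 52.2 and 52.3 normalised CPM in ESCs and at 43.0, 36.5, 42.9 and 36.8 in NPCs, without overlap. Its log2 fold change of -0.43 (SE 0.13, adjusted p = 0.0200) passed the threshold, but its sign turned to 0.04 under library totals and to 0.19 under reference-gene scaling, while relative to the median of all genes it stayed between -0.62 and -0.61. Without ESC B/J replicate 2, NPC B/J replicate 2 or NPC J/B replicate 2 it missed the threshold, with adjusted p of 0.0673, 0.0655 and 0.0716 by edgeR. *Orc4* was read at 33.1, 53.6, 33.2 and 49.5 normalised CPM in ESCs and at 44.7, 46.3, 45.8 and 52.9 in NPCs, so that the stages overlapped. Its log2 fold change was 0.16 (SE 0.20, adjusted p = 0.497), with a 95% interval of -0.31 to 0.64. Under library totals it was 0.63 (adjusted p = 0.0342) and under reference-gene scaling 0.78 (adjusted p = 0.0263), both past the threshold of edgeR's test. These scalings move all genes alike, and relative to the median of all genes *Orc4* stood at -0.010 with TMM factors, -0.017 on library totals and -0.019 under reference-gene scaling. In ESCs *Orc4* stood at 33.1 and 33.2 CPM in the libraries numbered 1 and at 53.6 and 49.5 in those numbered 2.

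The loaders *Cdc6* and *Cdt1*, which bring the helicase to ORC, had log2 fold changes of -1.87 and -1.94. *Gmnn* (chr13:24935812-24946084, minus strand) encodes geminin, the inhibitor that binds Cdt1 and so prevents relicensing. *Gmnn* was read at 61.6, 73.3, 69.5 and 63.5 normalised CPM in ESCs and at 24.7, 22.7, 28.1 and 17.5 in NPCs. Its stages did not overlap, and its log2 fold change was -1.52 (SE 0.18, adjusted p = 2.19e-04). The RNA of the inhibitor and that of its target thus both fell, while their proteins were not measured.

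The 6 subunits of the Mcm2 to Mcm7 ring, the core of the replicative helicase, all fell, with log2 fold changes between -2.20 and -1.68. *Mcm2* (chr6:88860452-88875762, minus strand) was read at 792, 665, 768 and 560.1 normalised CPM in ESCs and at 130.2, 157, 197 and 121 in NPCs. Its means were 696 ± 106 CPM in ESCs and 151 ± 34.3 CPM in NPCs (SD, n = 4), with a log2 fold change of -2.20 (SE 0.20, adjusted p = 6.96e-05). *Mcm5* (chr8:75836140-75856231, plus strand) was read at 540.3, 459.8, 523 and 391 normalised CPM in ESCs and at 106, 100.1, 142 and 73.9 in NPCs. Its stages were separated by a wide gap, and its log2 fold change was -2.18 (SE 0.23, adjusted p = 1.12e-04). *Mcm3*, *Mcm7*, *Mcm4* and *Mcm6* followed with -2.12, -1.95, -1.76 and -1.68. Per kilobase of the canonical transcript, an approximate scale on which genes can be compared, the ring subunits stood at 84.2 (*Mcm4*) to 222 (*Mcm7*) normalised CPM in ESCs and at 21.7 (*Mcm3*) to 58.0 (*Mcm7*) in NPCs. ORC subunits stood at 6.32 (*Orc4*) to 59.99 (*Orc6*) in ESCs.

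**Figure D3:**
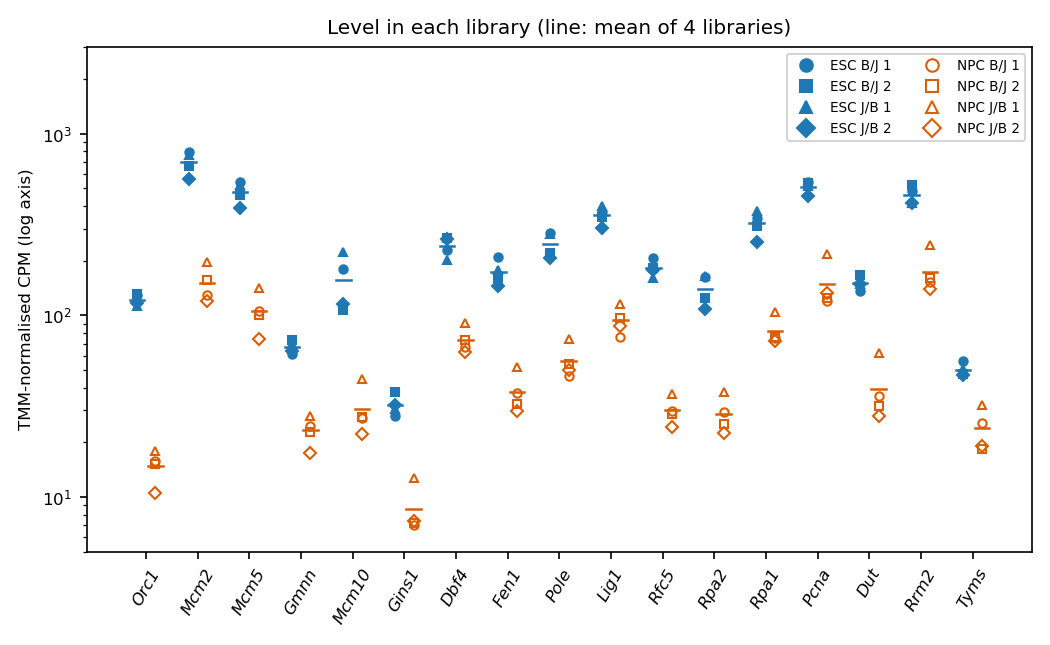
TMM-normalised CPM (y axis, log scale) of the 17 members named by rule in each of the 8 libraries, ESCs filled and NPCs open, with the symbol giving cross and replicate and the line the mean of 4 libraries. Every NPC library lies below every ESC library for each of these members, and NPC J/B replicate 1 (open triangle) is the highest NPC library throughout.

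Helicase activation held 8 members, of which 7 fell and 1 did not pass (*Cdc7*, the only one of the 8 whose sign turned under the other scalings), with a median log2 fold change of -1.45. *Mcm10* (chr2:4994516-5017629, minus strand), a scaffold of the active helicase, was read at 180.4, 108, 223 and 116 normalised CPM in ESCs and at 27.3, 27.6, 44.5 and 22.4 in NPCs. In ESCs its libraries numbered 1 lay above those numbered 2 in both crosses, and all lay above the NPC libraries. The log2 fold change was -2.37 (SE 0.31, adjusted p = 3.63e-04). *Gins1* (chr2:150747320-150773202, plus strand), a subunit of the GINS complex that tethers Cdc45 to the ring, was read at 28.0, 37.8, 30.5 and 32.1 normalised CPM in ESCs and at 7.01, 7.21, 12.8 and 7.40 in NPCs. The fitted change was -1.92 (SE 0.23, adjusted p = 1.99e-04) on the log2 scale. In NPCs J/B replicate 1 stood apart from the other 3 libraries. The other GINS subunits *Gins4*, *Gins2* and *Gins3* had -1.34, -1.25 and -0.79, and *Cdc45* had -1.56. *Gins3* did not pass under library totals (log2 fold change -0.31) or reference-gene scaling (-0.16), and *Gins2* not under the latter (-0.60).

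*Dbf4* (chr5:8445717-8472796, minus strand), the regulatory subunit of the kinase that fires licensed origins, was read at 229.8, 267, 201 and 263 normalised CPM in ESCs and at 67.4, 73.2, 90.4 and 62.8 in NPCs. The stages did not overlap, and its log2 fold change was -1.71 (SE 0.17, adjusted p = 8.64e-05). Its catalytic partner *Cdc7* was read at 49.8, 46.3, 42.2 and 43.3 normalised CPM in ESCs and at 34.1, 36.9, 38.7 and 37.9 in NPCs. Although the NPC libraries all lay below the ESC libraries, the log2 fold change of -0.30 (SE 0.13, adjusted p = 0.0647), with a 95% interval of -0.59 to -0.01, missed the adjusted threshold. It passed with DESeq2 (adjusted p = 0.0429) and with a replicate block in edgeR (adjusted p = 0.0494), and its sign turned under library totals (0.18) and reference-gene scaling (0.33).

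Polymerases and Okazaki maturation held 10 members, and all 10 fell, with a median log2 fold change of -1.63 and the same sign under every scaling. *Fen1* (chr19:10176479-10182097, minus strand), the nuclease that removes the flap of displaced primers, was read at 210.0, 160.3, 177 and 145 normalised CPM in ESCs and at 37.6, 32.4, 51.8 and 29.6 in NPCs. No NPC library came near the ESC range, and the log2 fold change was -2.19 (SE 0.21, adjusted p = 8.29e-05). *Pole* (chr5:110434172-110486287, plus strand), the catalytic subunit of the leading-strand polymerase, was read at 285, 221, 280.4 and 208 normalised CPM in ESCs and at 46.3, 54.2, 74.5 and 50.3 in NPCs. The log2 fold change of *Pole* was -2.15 (SE 0.19, adjusted p = 5.76e-05). *Lig1* (chr7:13011239-13045350, plus strand), the ligase that seals Okazaki fragments, was read at 371, 348, 401 and 302 normalised CPM in ESCs and at 75.7, 96.8, 116 and 87.3 in NPCs, again without overlap. For *Lig1* the log2 fold change was -1.92 (SE 0.17, adjusted p = 5.42e-05).

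The polymerase alpha-primase, which lays down primers, fell in its catalytic subunit *Pola1* (-1.80), in *Pola2* (-1.62) and in the primase subunits *Prim1* (-1.64) and *Prim2* (-0.84). The lagging-strand polymerase subunits *Pold2* and *Pold1* had log2 fold changes of -1.31 and -1.01, and *Pole2* had -1.12. Under reference-gene scaling *Prim2*, *Pold1* and *Pole2* did not pass, and *Prim2* did not under library totals.

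The clamp, its loader and the single-strand binding protein RPA held 9 members, of which 7 fell and 2 did not pass (*Rfc3* and *Rpa3*, the only ones of the 9 whose sign turned under the other scalings), with a median log2 fold change of -1.40. *Pcna* (chr2:132091082-132095234, minus strand), the ring that holds polymerases on DNA, was read at 540.3, 533, 513 and 455 normalised CPM in ESCs and at 120.3, 124, 217 and 133 in NPCs. Its means were 510.2 ± 38.5 CPM in ESCs and 149 ± 45.9 CPM in NPCs (SD, n = 4), with NPC J/B replicate 1 above the other NPC libraries, and its log2 fold change was -1.80 (SE 0.17, adjusted p = 7.86e-05). Per kilobase it was the highest of the 46 in both stages, at 336 normalised CPM in ESCs and 97.9 in NPCs.

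*Rfc5* (chr5:117515030-117527162, minus strand), a subunit of the loader that opens the clamp, was read at 207, 183, 160.3 and 177 normalised CPM in ESCs and at 29.9, 28.8, 37.0 and 24.3 in NPCs. It had the second largest fall of the 46, with a log2 fold change of -2.60 (SE 0.17, adjusted p = 2.05e-05). *Rfc1*, *Rfc2* and *Rfc4* followed with -1.40, -1.02 and -0.75, and *Rfc4* did not pass under library totals or reference-gene scaling. *Rfc3* was read at 32.6, 39.6, 32.8 and 36.8 normalised CPM in ESCs and at 28.5, 27.3, 34.5 and 26.7 in NPCs, so that the highest NPC library lay inside the ESC range. Its log2 fold change was -0.28 (SE 0.16, adjusted p = 0.148), with a 95% interval of -0.64 to 0.09.

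*Rpa2* (chr4:132495643-132506063, plus strand) and *Rpa1* (chr11:75188992-75239455, minus strand) encode the middle and large subunits of RPA. *Rpa2* was read at 162, 125, 164 and 109 normalised CPM in ESCs and at 29.3, 25.3, 38.0 and 22.6 in NPCs, and its log2 change was -2.28 (SE 0.23, adjusted p = 9.42e-05). *Rpa1* was read at 345, 309, 376 and 255 normalised CPM in ESCs and at 75.2, 75.9, 105 and 72.7 in NPCs, and its log2 change was -1.97 (SE 0.18, adjusted p = 6.84e-05). Neither overlapped between the stages. *Rpa3*, the small subunit, was read at 18.2, 38.1, 16.3 and 31.5 normalised CPM in ESCs and at 21.6, 19.95, 20.8 and 17.2 in NPCs. Its ESC libraries numbered 1 lay within or below the NPC range, and those numbered 2 above it. Its log2 fold change over both was -0.39 (SE 0.30, adjusted p = 0.274), with a 95% interval of -1.07 to 0.30. Taken from the libraries numbered 1 alone it was 0.29, and from those numbered 2 alone -0.89, a split by number made after the data were seen and not tested.

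Nucleotide supply held 4 members, which all fell, with a median log2 fold change of -1.24. *Dut* (chr2:125089110-125100966, plus strand), which breaks down dUTP before it enters DNA, was read at 136, 166, 149 and 149 normalised CPM in ESCs and at 36.1, 31.7, 62.4 and 28.0 in NPCs. NPC J/B replicate 1 was the highest of its NPC libraries, yet below all ESC libraries, and the log2 fold change was -1.94 (SE 0.25, adjusted p = 3.07e-04). *Rrm2* (chr12:24757811-24764145, plus strand), the S-phase subunit of ribonucleotide reductase, was read at 482, 521, 416 and 415 normalised CPM in ESCs and at 153, 160.1, 245 and 139 in NPCs. The log2 fold change of *Rrm2* was -1.40 (SE 0.18, adjusted p = 3.42e-04). *Tyms* (chr5:30263198-30278633, minus strand), which makes thymidylate, was read at 56.2, 47.4, 50.6 and 47.0 normalised CPM in ESCs and at 25.7, 18.5, 32.1 and 19.2 in NPCs, without overlap. For *Tyms* the log2 fold change was -1.08 (SE 0.21, adjusted p = 0.00235). The large reductase subunit *Rrm1* had -0.78, and it did not pass under library totals (-0.30) or reference-gene scaling (-0.15).

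The range of fitted log2 fold changes among subunits of the same complex went from 0.30 in polymerase delta to 3.20 in ORC, and these differences were not tested. To set subunits side by side without any scaling, the read counts of the subunit with the largest fall were divided by those of the subunit with the smallest fall within each library. Since the pair was chosen by its change, the ratios are descriptions and were not tested. *Orc1*/*Orc4* was 2.36 to 3.91 in ESCs and 0.200 to 0.392 in NPCs, so that the order of both subunits' counts turned. *Rfc5*/*Rfc3* was 4.64 to 6.35 in ESCs and 0.910 to 1.07 in NPCs. *Dbf4*/*Cdc7* was 4.61 to 6.06 and 1.66 to 2.34. In these 3 pairs every NPC library lay below every ESC library. Among complexes of 3 or more subunits the ring had the smallest range of changes, with *Mcm2*/*Mcm6* at 1.30 to 1.497 in ESCs and 0.890 to 1.04 in NPCs. *Rrm2*/*Rrm1* was 1.71 to 1.88 and 1.06 to 1.29. *Rpa2*/*Rpa3* was 8.93 and 10.04 in the ESC libraries numbered 1, 3.28 and 3.45 in those numbered 2, and 1.27 to 1.83 in NPCs. The ESC libraries of this pair thus split by replicate number in both crosses, above all NPC libraries. The polymerase ratios *Pola1*/*Prim2* (3.29 to 4.31 against 1.31 to 2.30) and *Pole*/*Pole2* (6.86 to 12.1 against 3.26 to 5.49) and the GINS ratio *Gins1*/*Gins3* (1.16 to 1.82 against 0.612 to 1.03) were lower in NPCs, without overlap. For *Pold2*/*Pold1* and *Cdt1*/*Gmnn* the stages overlapped.

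**Figure D4:**
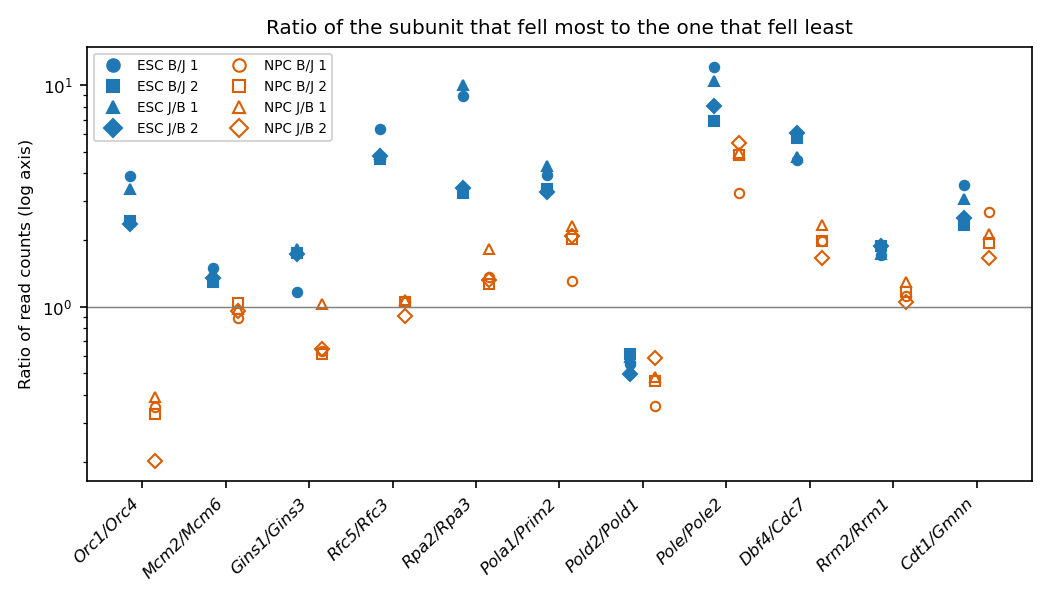
Ratio of the read counts of 2 subunits in each library (y axis, log scale), the subunit with the largest fall over that with the smallest fall, for 11 complexes or pairs, ESCs filled and NPCs open. *Orc1*/*Orc4* crosses 1 between the stages, while *Pold2*/*Pold1* and *Cdt1*/*Gmnn* overlap.

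Within the crosses, 41 of the 46 members fell in B/J (25.6% of all genes tested) and 38 in J/B (25.3%), and 0 rose in either (edgeR, with 43 and 41 members at an unadjusted p below 0.05, all lower, where 28.3% and 28.1% of all genes were lower; DESeq2 called 42 and 39 and limma-voom 41 and 38, all lower). Scaled to library totals 34 and 31 fell (15.8% and 15.2% of all genes), and under reference-gene scaling 34 and 27 (14.2% and 10.9%). The median log2 fold change of the members was -1.75 in B/J and -1.45 in J/B. *Orc1* fell by similar amounts, with -3.07 in B/J (adjusted p = 2.11e-04) and -3.00 in J/B (adjusted p = 2.52e-04). *Pcna* had -2.13 in B/J (adjusted p = 4.86e-04) and -1.47 in J/B (adjusted p = 0.00198). *Gins3*, *Rfc4* and *Rrm1* passed in B/J but not in J/B, while the interaction was called for none of them. With a replicate block within each stage, added after seeing the data, all 3 also passed in J/B (adjusted p = 0.0431, 0.0113 and 0.0223 by edgeR), and 43 members fell in B/J and 42 in J/B (31.8% and 31.4% of all genes).

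For the interaction of stage and cross, 0 of the 46 members were called by edgeR (0% of all genes tested), 0 had an unadjusted p below 0.05 (3.49% of all genes), and DESeq2 and limma-voom called 0. The largest difference was that of *Pcna* at 0.67 (unadjusted p = 0.0819 by edgeR), followed by *Pola1* at 0.66. The median difference of the members was 0.28, with 40 of 46 above 0, beside -0.02 for all genes, of which 48.3% were above 0. Without NPC J/B replicate 1 it was -0.08 with 16 above 0, beside -0.10 and 42.7% for all genes. Without NPC J/B replicate 2 it was 0.53 with 46 above 0, beside -0.06 and 45.6% for all genes. The sign of the members' median thus rests on which NPC J/B library is kept. Between the crosses in ESCs, 0 members were called (0% of all genes tested) and 0 had an unadjusted p below 0.05 (2.11%). Their median was -0.10 with 43 members lower in J/B, beside 0.0033 for all genes, of which 50.4% were higher. In NPCs 0 members were called (0.0061% of all genes tested) and 0 had an unadjusted p below 0.05 (6.4%). Their median was 0.15 with 36 members higher in J/B, beside 0.011 for all genes, of which 51.2% were higher. DESeq2 and limma-voom called 0 members in either comparison of the crosses. With replicate number as a block, edgeR called 0 members for these comparisons and for the interaction. A block within each stage was not fitted for them, though same-numbered libraries of the crosses correlated at 0.61 in ESCs and 0.51 in NPCs.

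The NPC libraries differed among themselves. NPC J/B replicate 1 was the highest NPC library for 39 of the 46 members (84.8%), where it was the highest for 24.0% of all genes tested, and NPC J/B replicate 2 was the lowest for 32. Between these replicates 45 of 46 members were lower in replicate 2, with a median log2 difference of -0.64, beside 0.00 for all genes. In NPC B/J 23 of 46 were lower in replicate 2, with a median of -0.02. In every group the spread between replicates exceeded that of counting alone (chi-square over its degrees of freedom 60.3 to 84.7). The summed level of 15 genes of mitosis was 1452, 1904, 2262 and 1738 CPM on library totals in the NPC libraries, highest in J/B replicate 1 but lowest in B/J replicate 1. The 10 neuron markers summed to 362, 1339, 1054 and 2082 CPM, highest in J/B replicate 2, and the 10 fibroblast markers to 2204, 1679, 962 and 2341 CPM, lowest in J/B replicate 1. Neural precursor markers summed to 288, 618, 884 and 980 CPM, trophoblast markers to 3585, 1972, 2034 and 1386 CPM, and endoderm markers to 88.1, 81.5, 138 and 167 CPM. Their part in the level of the members was not tested. Without NPC J/B replicate 1 the median change of the members between the stages was -1.75, and without NPC J/B replicate 2 it was -1.46.

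**Figure D5:**
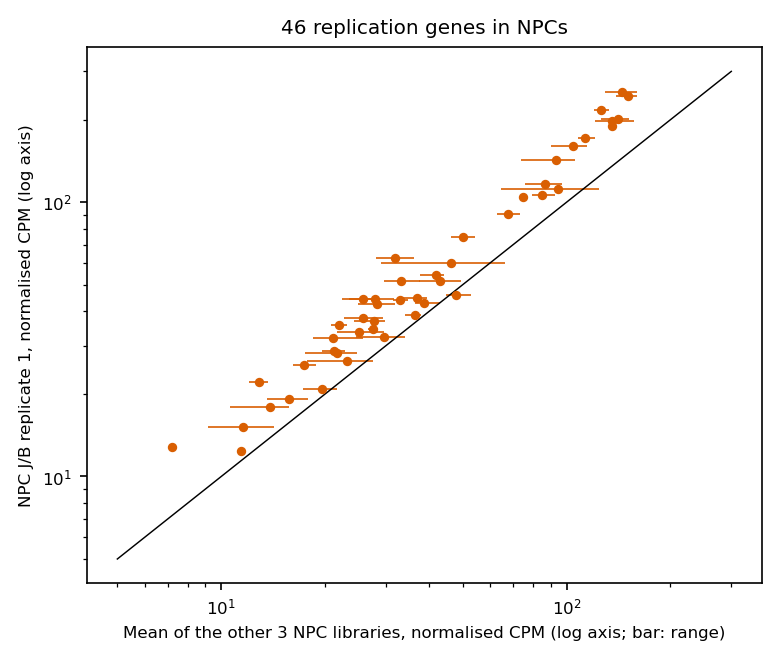
Normalised CPM of the 46 members in NPC J/B replicate 1 (y axis, log scale) against the mean of the other 3 NPC libraries (x axis, log scale, bar: their range), with the line of equality. Most points lie above the line, and for 39 of 46 this library is the highest of the 4.

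Other genes of DNA replication, a list of 40 chosen outside the 46, showed the same direction in most members. Of the 39 tested, 31 fell and 2 rose, where 31.9% of all genes fell and 37.5% rose, with a median log2 fold change of -1.28 beside 0.17 for all genes. On library totals 26 fell and 2 rose (20.9% and 48.9% of all genes), and under reference-gene scaling 23 fell and 2 rose (17.2% and 51.6%). The largest falls were those of *Esco2*, the cohesin acetyltransferase of S phase, at -3.51 (adjusted p = 1.85e-05) and of *Ticrr*, the origin firing factor treslin, at -3.41 (adjusted p = 1.61e-04). *Pold4*, the smallest subunit of polymerase delta, rose by 2.17 on the log2 scale (adjusted p = 6.66e-04) and *Rrm2b*, the reductase subunit used outside S phase, by 1.62 (adjusted p = 9.99e-04). *Chtf8* was listed at 0 in all libraries.

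Of 13 E2F factors, their dimer partners and pocket proteins, 6 fell and 3 rose, with a median of -0.21, on library totals 4 fell and 5 rose, and under reference-gene scaling 4 fell and 6 rose. The shares of all genes under the 3 scalings are those just given, and no change of the list as a whole is read from these counts. *E2f4* fell by 1.79 on the log2 scale (adjusted p = 6.53e-05) and the dimer partner *Tfdp1* fell by 1.24 (adjusted p = 9.61e-04), while the pocket protein genes *Rb1* and *Rbl2* rose by 2.20 (adjusted p = 3.22e-04) and 1.40 (adjusted p = 0.00119). All 15 genes of mitosis fell with TMM factors, with a median of -1.16, while 11 fell on library totals and 8 under reference-gene scaling, where the log2 fold change of *Mki67* turned to 0.034. *Ccnb1*, the mitotic cyclin, fell by 1.94 (adjusted p = 7.33e-05) and *Aurka*, a spindle kinase, fell by 1.74 (adjusted p = 9.70e-05).

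The libraries held 22537138 to 32706015 reads assigned to genes, and the member with the fewest reads in any library, *Gins1*, had 226. Marker lists of 10 genes each were read beside the members, with TMM factors unless stated, where 31.9% of all genes tested fell and 37.5% rose. In NPCs 10 of 10 pluripotency markers fell (summed level 5740 to 8822 CPM on library totals in ESCs, 239 to 558 in NPCs) and 9 of 10 markers of neural precursors rose (47.0 to 91.0 in ESCs, 288 to 980 in NPCs), while *Pax6* missed the threshold with TMM factors (log2 fold change 1.77, adjusted p = 0.0606) and passed it on library totals (2.25, adjusted p = 0.0293) and under reference-gene scaling (2.40, adjusted p = 0.0272), where 10 of 10 rose. For neurons 8 of 10 rose and 1 fell (282 to 379 and 362 to 2082), while 9 rose and 1 fell on library totals and 9 rose and 0 fell under reference-gene scaling. Markers of other lineages moved with the stage as well. 10 of 10 trophoblast markers rose (12.2 to 75.8 and 1386 to 3585, with *Tpbpa*, *Prl3d1*, *Prl2c2* and *Pappa2* at 0 in all ESC libraries), as did 9 of 10 fibroblast markers (9.72 to 70.0 and 962 to 2341). Of the 8 endoderm markers tested, 6 rose and 1 fell (12.4 to 19.8 and 81.5 to 167, with *Afp* and *Ttr* at 0 in all ESC libraries). On library totals and under reference-gene scaling 7 endoderm markers rose and 0 fell. The part of these cells in the lower level of the replication genes was not tested.

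Some members share annotated exons with a neighbour on the other strand. The paper aligned the reads as strand-specific, but the sources used here do not give the strand setting of the counting. The largest shares of exon length were those of *Gins2* with *Gse1* (67.3%), *Fen1* with *Gm10143* (59.0%), *Rrm2* with *Gm59512* (43.3%), *Rfc5* with *Wsb2* (41.4%) and *Orc3* with *Akirin2* (32.9%), so that reads of these neighbours may have been counted in part with the member. Where the neighbour is itself counted, unlike *Gm10143* and *Gm59512*, shared reads may instead have been set aside as ambiguous. *Orc4*, which enters the *Orc1*/*Orc4* ratio, shares 22.2% with *Acvr2a* and 4.82% with *Mbd5*. *Orc5* shares exons on its own strand with the pseudogene *Gm15421* (5.37% and 5.96% for its 2 entries). Same-strand sharing also holds for *Pole2* with *Gm49384* (6.33%), *Mcm7* with *Mir25* (1.5%) and *Mir93* (1.57%), and *Rpa1* with *Gm54808* (0.556%).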

How the data were processed

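The values are raw counts of reads per gene, summed over both alleles, as the authors deposited them for each of 8 libraries, with 5 closing entries for reads without a gene that were left out here. Paired-end reads had been aligned with TopHat2 to the mm39 genome masked at JF1 SNPs with a refGene-based annotation and filtered to properly paired alignments of mapping quality 20 or more. The alignment was set for strand-specific libraries. The submitters' processing notes also name HTSeq, DESeq2 and edgeR, while the sources used here give neither versions nor the strand setting of the counting.

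Counts were fitted in R 4.3.3 with edgeR 4.0.16 (TMM factors, filterByExpr with a minimum count of 10, 4 group means, robust quasi-likelihood test, common dispersion 0.113). P-values were adjusted by Benjamini-Hochberg over 16399 genes at a threshold of 0.05. CPM are read counts scaled to a fixed library total, after TMM where called normalised, and standard errors are those of the fitted log2 changes. The depth of 22537138 to 32706015 reads per library leaves at least 226 reads for any member, so that counting error is small beside the spread between libraries. As alternatives, counts were scaled by RLE factors, by totals, or to *Gapdh*, *Gusb* and *Tbp*. DESeq2 1.42.0 and limma-voom (limma 3.58.1) replaced the test, the filter was dropped or set to 1 CPM on average, dispersions were not made robust, replicate number entered as a block, only 4 libraries were fitted, or single libraries were left out. Added after seeing the data were a block inside each stage and the libraries of a single number.

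Members and lists were chosen with earlier results of these data known. Given in every library were, per role, the 3 called members with the largest change, members called against the majority, and *Pcna*, *Mcm2* and *Gmnn*. The values of *Orc3*, *Orc4*, *Cdc7*, *Rfc3* and *Rpa3* were added after they were seen. Of the other lists, the 2 largest called changes in each direction were named, and of the marker lists only genes that qualify a count. Replicate numbers are shared by the groups, but over all genes same-numbered ESC and NPC libraries correlated in their deviations at 0.05 to 0.09 (over the members at -0.16 to 0.56), and the numbers were not taken to pair the stages. Gene positions and canonical transcript lengths are those of GENCODE vM39 on GRCm39. Allelic counts were not analysed here.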

Additional observations from a re-analysis of the deposited data

Results flagged for a closer look

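Of 92 sets of 4 libraries (46 members in each stage, on normalised CPM), 7 had a library whose gap to the nearest of the others was past Dixon's limit. For a single set chance does this in about 1 set in 20. The sets share their libraries and the members varied together, so the count of 7 was not judged against that rate. Of these 7, 6 concern NPC J/B replicate 1. There *Pcna* stood at 217 CPM against 120.3 to 133 in the other NPC libraries, and *Rrm1* at 189.6 against 132 to 137. *Rpa1* stood at 105 CPM against 72.7 to 75.9, and *Cdc6* at 35.6 against 20.8 to 23.1. The GINS subunits *Gins1* and *Gins2* stood at 12.8 CPM against 7.01 to 7.40 and at 22.1 against 12.0 to 13.6.

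In ESCs, *Pold1* stood at 244 CPM in B/J replicate 1 and at 182 to 186 in the other libraries.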

How the results depend on the processing

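Of 782 values (46 members under 17 alternatives each), 756 kept their direction and their side of the threshold, 14 lost the call, 4 gained it and 8 changed sign, and 34 of 46 members kept both under every alternative. The sign changes were those of *Orc3*, *Cdc7*, *Rfc3* and *Rpa3*, at 0.042, 0.18, 0.20 and 0.080 with library totals and at 0.19, 0.33, 0.34 and 0.22 with *Gapdh*, *Gusb* and *Tbp*. By construction these scalings drop the TMM factors and move all genes alike, and relative to the median of all genes these 4 members stood at -0.62 to -0.45 under each of the 3 scalings. They also gave 1 higher member each (*Orc4*) in place of 0 and median changes of -1.12 and -0.98. The ratio of the summed level of the members, 2.31 on library totals, was 3.23 on TMM-normalised CPM. Leaving out a library gave medians from -1.75 to -1.46.

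With a replicate block 43 members were lower in place of 42, and 42 in B/J and 40 in J/B. Of the 16399 genes tested, 5461 were then lower over both crosses in place of 5233. A block inside each stage, added after seeing the data, gave 43, 43 and 42 (35.9%, 31.8% and 31.4% of all genes tested were lower). Deviations of same-numbered libraries correlated over all genes at 0.61 (ESCs) and 0.51 (NPCs) between the crosses and at 0.05 to 0.09 between the stages. Over the 46 members these were 0.79 and 0.22, and between the stages 0.48 and 0.56 with NPC J/B but -0.0049 and -0.16 with NPC B/J. Depth did not limit the members, the lowest count being 226. Limits are the 2 libraries per group, a single line per cross, a culture that also holds other cells, and kits and instruments not given per library.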
